A study of Mus musculus with 46 samples.

Results

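Old mouse liver was examined 4 h after partial hepatectomy (PH), the surgical removal of 70% of the liver. The comparison takes the 3 arrays of old livers at 4 h after PH and the 3 arrays of old livers at 0 h, 6 of the 46 arrays of the series, over all 12422 probe sets that are not array controls. The mice were males of the hybrid strain CB6F1, aged 25 to 27 months. The old PH 4 h group had the operation under injected avertin and inhaled isoflurane. The old sham 4 h group, 2 arrays of the same age and time, had sham surgery, in which by its usual meaning the liver is not removed. The old 0 h group had no treatment by the labels. Young livers of mice aged 5 to 6 months, with 3 arrays at 4 h after PH and 3 arrays at 0 h, and the 3 arrays of old livers at 2 h after PH served for 2 further comparisons. The 2 ages were obtained from separate sources, so that age and source cannot be told apart. The labels number the replicates but do not state whether a separate mouse lies behind each array. The p-values therefore rest on differences among arrays within groups, pooled over all groups of the series, part of which may be technical. For a given gene this pooled spread can be wider or narrower than that of the arrays compared.

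After loss of most of its mass the remaining liver leaves rest and prepares to divide. In this priming phase, Kupffer cells release tumour necrosis factor and interleukin-6, which act through the transcription factors NF-kB and STAT3, and immediate early genes such as Fos, Jun and Myc are switched on without new protein synthesis. Stress hormones, the acute phase response and a fall in blood glucose reach the liver at the same time, and a sham operation brings on several of them. DNA synthesis in mouse hepatocytes comes much later than the time studied here.

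The values are RMA expression values on the log2 scale, so that a difference of 1 is a doubling of the signal. The arrays of each group resembled each other, with correlations of 0.986 to 0.994 among the PH arrays and 0.992 to 0.994 among the 0 h arrays, against 0.967 to 0.983 between the groups. The median standard deviation between replicates was 0.107 in the PH group and 0.108 in the 0 h group, of 3 arrays each. For the 2 sham arrays it was 0.0606, and their correlation was 0.9966, closer than any pair of the PH or 0 h arrays. The sham arrays differed in their controls. The array's own beta-actin 3′ control probe set read 12.55 to 12.79 on the PH arrays and 12.54 to 12.63 on the 0 h arrays. It read 11.41 and 11.33 on the sham arrays, and 11.27 to 12.24 on old sham arrays of the other times. The 3′ minus 5′ difference of the GAPDH control was 0.26 to 0.31 on the PH arrays and 0.25 to 0.37 on the 0 h arrays. On the sham arrays it was 0.52 and 0.60. That of beta-actin was 0.88 to 0.99, 0.76 to 1.05, and 1.245 and 1.231, in the same order. The part of these control differences in the comparisons with sham was not tested. The bacterial spike-in controls averaged 9.466, 10.31 and 9.643 on the PH arrays, 9.494 and 9.548 on the sham arrays, and 9.702, 9.739 and 10.61 on the 0 h arrays. The tissue matched its label. Albumin (Alb) read 13.77, 13.83 and 13.83 on the PH arrays, against 13.96, 13.90 and 13.77 on the 0 h arrays, and none of 9 hepatocyte markers passed the test in either direction.

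At 4 h after PH, 989 probe sets of the old liver were higher than at 0 h and 861 were lower, at a limma adjusted p under 0.05. These are 7.96% and 6.93% of those tested, and 14.9% together. They stand for 803 genes that rose and 742 that fell. Large changes were mostly rises, since 190 probe sets rose by more than 1 log2 unit and 82 fell by more than that. The median difference of all probe sets was 0.0296. All 3 PH arrays lay above all 3 of the 0 h arrays for 2380 probe sets (19.2%) and below them for 1854 (14.9%), 34.1% together. The total of 1850 called probe sets was 1073 without PH replicate 3 and 1083 without 0 h replicate 2. Because whole liver was measured, fewer cells of a type and less RNA per cell cannot be told apart.

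**Figure D1:**
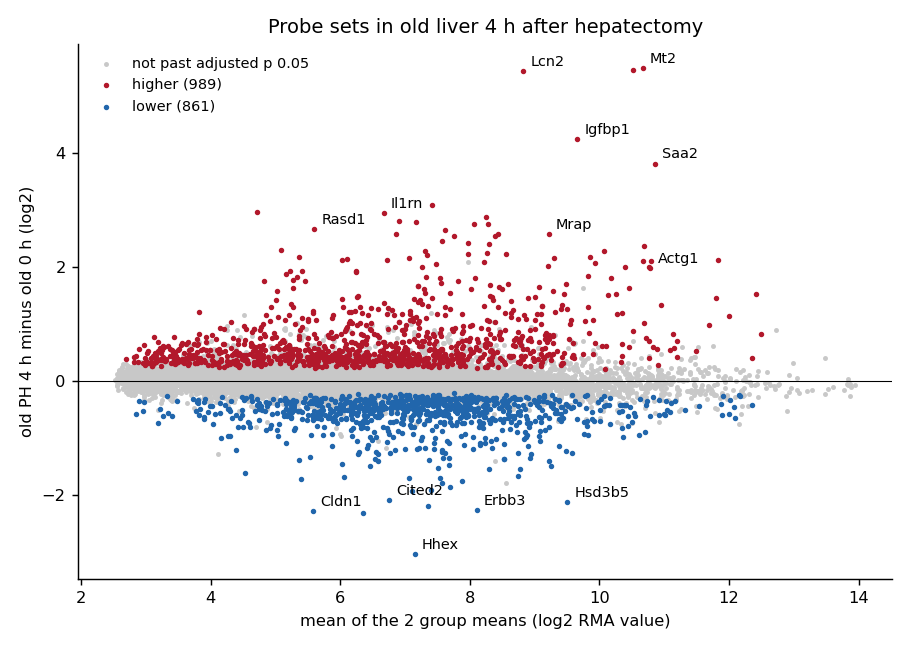
Each point is 1 probe set, with the mean of the 2 group means (log2 RMA value) on the horizontal axis and the difference old PH 4 h minus old 0 h (log2) on the vertical axis. Red points are the 989 higher and blue points the 861 lower probe sets at adjusted p under 0.05, and the rises reach 5.48 (Mt2) while the falls reach -3.04 (Hhex).

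Genes of metal binding and of the acute phase stood among the largest rises, together with Igfbp1, described further on. Mt2, one of the metallothioneins, small cysteine-rich proteins that bind zinc and copper, read 13.42, 13.40 and 13.41 on the PH arrays, against 8.68, 7.84 and 7.26 on the 0 h arrays. It rose by 5.48 ± 0.78 log2 units (difference ± SE, adjusted p = 7.28e-06), which is 44.7-fold. Its neighbour Mt1 read 13.32, 13.14 and 13.27 after PH, against 9.28, 7.25 and 6.87 at 0 h, a rise of 5.44 ± 0.84 (adjusted p = 2.43e-05). The 3 PH values of each metallothionein were nearly equal, while the 0 h values were spread over more than 1 log2 unit. Lcn2, lipocalin 2, a secreted protein that withholds iron from bacteria, read 11.52, 11.55 and 11.54 after PH, against 6.60, 6.11 and 5.60 at 0 h, and rose by 5.43 ± 1.16 (adjusted p = 0.00128). Saa2, a serum amyloid A apolipoprotein of the acute phase, read 13.16, 12.63 and 12.51 after PH, against 7.89, 10.60 and 8.37 at 0 h. Its rise of 3.81 ± 1.07 (adjusted p = 0.0133) lost its call without 0 h replicate 1 (3.28, adjusted p = 0.0709) or 0 h replicate 3 (3.52, adjusted p = 0.0538).

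The promoters of these 4 genes, the 250 bases before the start of the transcript in the RefSeq annotation of GRCm38.p6, are shown because their genes had the largest rises within the list of acute phase genes counted below. The stretches are chr8:94172368-94172617 (plus strand) for Mt2, chr8:94178839-94179088 (plus strand) for Mt1, chr2:32387740-32387989 (minus strand) for Lcn2 and chr7:46751583-46751832 (plus strand) for Saa2. Capitals mark matches on either strand to the metal response core TGCNCNC or to the C/EBP motifs TTGCNNAA or TTNNGCAA.
Mt2: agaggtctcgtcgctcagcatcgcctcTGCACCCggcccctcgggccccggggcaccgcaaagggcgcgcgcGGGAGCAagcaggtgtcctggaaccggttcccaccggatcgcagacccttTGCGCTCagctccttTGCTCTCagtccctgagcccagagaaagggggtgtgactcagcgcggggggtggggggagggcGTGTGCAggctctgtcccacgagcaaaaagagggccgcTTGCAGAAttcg
Mt1: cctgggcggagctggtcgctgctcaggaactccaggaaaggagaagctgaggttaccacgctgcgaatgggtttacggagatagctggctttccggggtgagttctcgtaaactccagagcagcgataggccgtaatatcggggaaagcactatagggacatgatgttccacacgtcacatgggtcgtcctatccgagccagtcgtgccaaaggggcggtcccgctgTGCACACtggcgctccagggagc
Lcn2: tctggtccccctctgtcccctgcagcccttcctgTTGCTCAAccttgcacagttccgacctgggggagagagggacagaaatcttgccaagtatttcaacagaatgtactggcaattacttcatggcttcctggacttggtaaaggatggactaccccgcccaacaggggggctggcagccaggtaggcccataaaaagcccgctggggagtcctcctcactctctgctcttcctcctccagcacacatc
Saa2: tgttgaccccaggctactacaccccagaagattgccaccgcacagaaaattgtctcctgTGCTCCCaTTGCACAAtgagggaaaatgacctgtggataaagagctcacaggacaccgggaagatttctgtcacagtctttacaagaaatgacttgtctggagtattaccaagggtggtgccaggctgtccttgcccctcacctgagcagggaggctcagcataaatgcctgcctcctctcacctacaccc
The metal response core was found 5 times in Mt2, once in Mt1, once in Saa2 and not in Lcn2, and 44.4% of 32851 promoters of the same length hold it. The C/EBP motif was found once each in Mt2, Lcn2 and Saa2, and 9.56% of promoters hold it. The matches in Mt2 lie from 223 to 12 bases before the start, and the single match in Mt1 begins 23 bases before it. A match describes the letters and was not tested as a binding site. Only the stretches shown were searched. Matches further upstream or past the annotated start were not counted, so the numbers do not compare whole promoters.

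These 4 genes were also high after the sham operation. Mt2 read 13.38 and 13.49 on the sham arrays, Mt1 13.45 and 13.58, Lcn2 11.11 and 11.86, and Saa2 13.13 and 13.36. The PH values lay within or next to those of the sham arrays: the difference PH minus sham was -0.03 ± 0.88 for Mt2, -0.27 ± 0.94 for Mt1, 0.05 ± 1.30 for Lcn2 and -0.48 ± 1.20 for Saa2, with adjusted p-values from 0.832 to 0.987. These standard errors pool the spread within all groups of the series. For Mt2 the SD was 2.89 at 0.5 h after PH and 2.94 at 0.5 h after sham surgery. On the 4 h arrays compared here it was 0.01 after PH and 0.08 after sham surgery. In this fit a difference of 1 log2 unit either way would not have passed for these 4 genes, however close the arrays of each group lay. Il1r1, the signalling receptor of interleukin-1, showed the same order. It read 9.69, 9.67 and 9.70 after PH, 9.42 and 9.77 after sham surgery, and 7.23, 6.71 and 6.47 at 0 h, a rise over 0 h of 2.88 ± 0.53 (adjusted p = 0.000261) and a difference from sham of 0.09 ± 0.60 (adjusted p = 0.942). Against old 0 h livers, 1278 probe sets (10.3%) were higher and 959 (7.72%) lower after sham surgery, 18% of those tested. Against sham livers 778 (6.26%) were higher and 851 (6.85%) lower after PH, 13.1% of those tested. Without sham replicate 1 the PH minus sham total of 1629 was 449, without sham replicate 2 it was 390, and without PH replicate 3 it was 933. The sham minus 0 h total of 2237 was 953 without sham replicate 1, 582 without sham replicate 2 and 1310 without 0 h replicate 2. A fit without 1 sham array leaves a single one, which is assumed to vary like the arrays of the other groups, so a call kept or lost in such a fit says little about its stability.

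**Figure D2:**
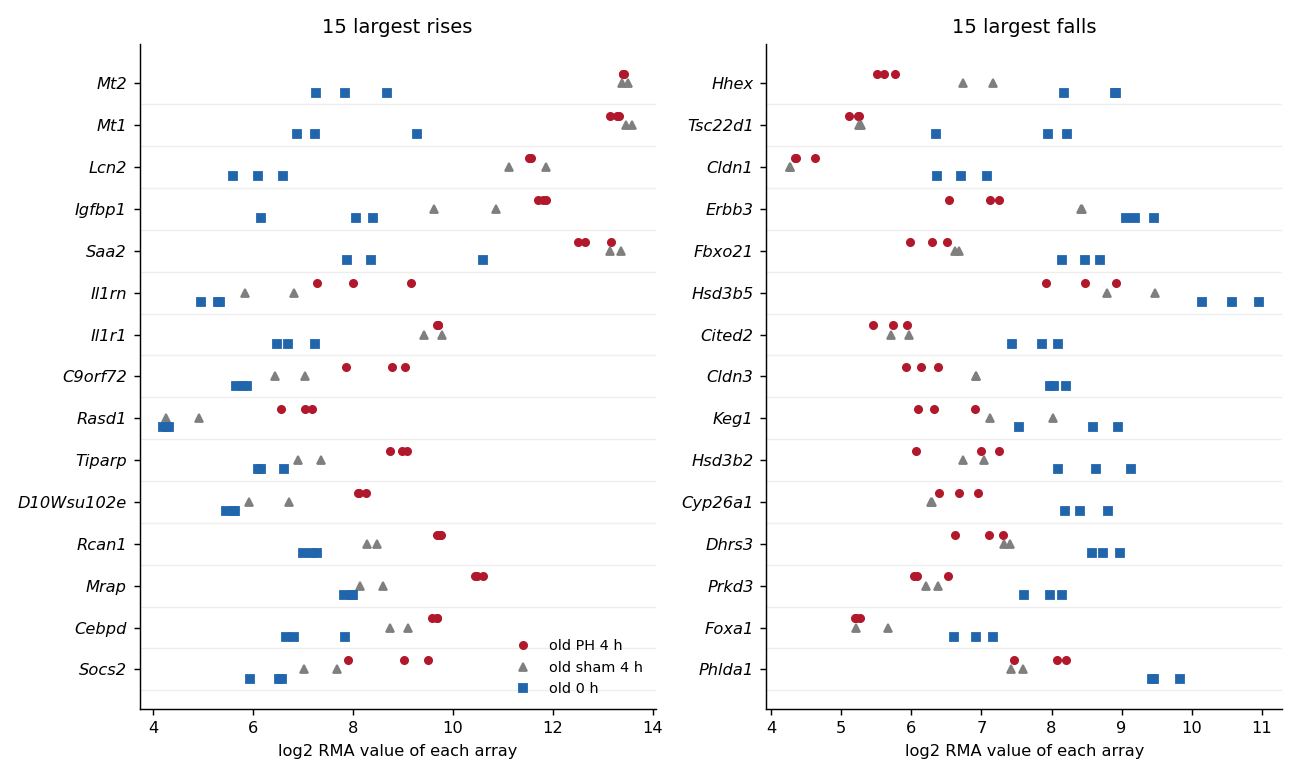
The log2 RMA value of every old PH 4 h array (red circles), old sham 4 h array (grey triangles) and old 0 h array (blue squares) for the 15 genes with the largest rises (left) and the 15 with the largest falls (right) against 0 h. The PH and sham points overlap or lie close for Mt2, Mt1, Lcn2 and Cldn1, and stand apart for Rasd1, Mrap, Tiparp and Erbb3.

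Other genes among the 15 largest rises were higher after PH than after sham surgery as well. Rasd1, a Ras-like GTPase first found as induced by dexamethasone, read 7.18, 6.56 and 7.04 after PH, 4.27 and 4.91 after sham surgery, and 4.28, 4.32 and 4.20 at 0 h. It rose by 2.66 ± 0.32 over 0 h (adjusted p = 4.66e-07) and by 2.34 ± 0.36 over sham (adjusted p = 6.24e-05). Mrap, the accessory protein of the melanocortin 2 receptor, read 10.44, 10.59 and 10.48 after PH, 8.14 and 8.61 after sham surgery, and 7.82, 7.99 and 7.98 at 0 h. For both genes no PH array came near a sham or 0 h array, and for Mrap the rise was 2.57 ± 0.22 over 0 h (adjusted p = 9.37e-10) and 2.13 ± 0.25 over sham (adjusted p = 2.35e-06). Tiparp, an ADP-ribosyltransferase and target of the aryl hydrocarbon receptor, read 8.73, 9.09 and 8.99 after PH, 6.89 and 7.35 after sham surgery, and 6.61, 6.16 and 6.09 at 0 h, and exceeded sham by 1.81 ± 0.29 (adjusted p = 9.95e-05). C9orf72 exceeded sham by 1.83 ± 0.26 (adjusted p = 2.35e-05) and D10Wsu102e by 1.84 ± 0.24 (adjusted p = 1.49e-05). The calls of these 5 genes against sham held in every alternative fit that kept both sham arrays. Rcan1, which inhibits calcineurin, rose by 2.57 ± 0.26 over 0 h (adjusted p = 1.88e-08) and by 1.34 over sham (adjusted p = 0.00229), a call lost without sham replicate 1 (1.24, adjusted p = 0.0545).

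The genes furthest above sham, besides Rasd1 and Mrap, act in lipid and fuel use, in the cytoskeleton and in signalling. Cidec, a protein of lipid droplets that promotes their growth, read 5.95, 6.16 and 6.61 after PH, 4.33 and 4.24 after sham surgery, and 3.96, 3.74 and 4.12 at 0 h, and exceeded sham by 1.95 ± 0.28 (adjusted p = 2.38e-05). Pdk4, the kinase that shuts off pyruvate dehydrogenase, read 9.72, 7.48 and 8.15 after PH, 6.13 and 6.15 after sham surgery, and 5.96, 6.42 and 6.35 at 0 h. Pdk4 exceeded sham by 2.31 ± 0.40 (adjusted p = 0.000289), and its 3 PH arrays differed among themselves by more than 2 log2 units. Akap12, an anchor of protein kinase A, was 2.18 ± 0.32 above sham (adjusted p = 3.44e-05), and Rell1 2.84 ± 0.33 (adjusted p = 2.35e-06). Actg1, the gamma-actin gene, read 11.60, 11.86 and 11.87 after PH, 8.79 and 9.64 after sham surgery, and 9.96, 10.01 and 9.43 at 0 h. It rose by 1.97 ± 0.40 over 0 h (adjusted p = 0.000731) and by 2.56 ± 0.45 over sham (adjusted p = 0.000274), beside the low beta-actin control of the sham arrays, whose part in this difference was not tested. Against 0 h, 1 of the 2 probe sets of Actb, the beta-actin gene, went the other way, at 7.68, 8.88 and 7.45 after PH against 9.09, 9.62 and 9.91 at 0 h (adjusted p = 0.0358), a call lost without 0 h replicate 2 or 3 or PH replicate 1 or 3 (adjusted p = 0.104 to 0.179). Ccl2, the monocyte chemoattractant, read 5.13, 9.25 and 7.14 after PH, 4.56 and 5.72 after sham surgery, and 5.68, 4.68 and 4.73 at 0 h. PH replicate 2 carried much of its rise of 2.14 ± 0.62 (adjusted p = 0.0162), which was 1.11 without that array (adjusted p = 0.218), and the call was also lost without 0 h replicate 2 (adjusted p = 0.0758) or 0 h replicate 3 (adjusted p = 0.0595).

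Among the genes furthest below sham, besides Hhex and Erbb3 below, most had no call against 0 h. Tnp1, a chromatin protein of sperm, read 7.13, 7.03 and 7.11 after PH, 8.27 and 8.31 after sham surgery, and 7.19, 6.79 and 7.23 at 0 h. Pdc, phosducin of the retina, read 5.75, 5.97 and 5.32 after PH, 6.91 and 7.01 after sham surgery, and 6.19, 6.08 and 6.06 at 0 h. For both genes the sham arrays stood above the PH and the 0 h arrays, so that the PH minus sham differences of -1.20 ± 0.18 (adjusted p = 5.41e-05) and -1.28 ± 0.18 (adjusted p = 3.26e-05) came without a call against 0 h (adjusted p = 0.945 and 0.0796). Kcnj9, a potassium channel subunit, was below sham by 1.28 (difference -1.28 ± 0.34, adjusted p = 0.0131) and had no call against 0 h (adjusted p = 0.26). Without sham replicate 2 the Kcnj9 difference from sham was -1.24 (adjusted p = 0.114). Smarcd2, a subunit of a chromatin remodelling complex, and Trp53inp2, an autophagy protein, each had a difference from sham of -1.18 (adjusted p = 8.65e-05 and 0.000708), and only Smarcd2 also fell against 0 h (-0.82, adjusted p = 0.000793, 1 of 4 probe sets). Serpina12, an adipokine, read 7.50, 9.64 and 7.85 after PH, 9.90 and 9.49 after sham surgery, and 8.36, 8.85 and 9.78 at 0 h. Its difference from sham (-1.36, adjusted p = 0.0363) was lost in 6 alternative fits, with -1.16 without sham replicate 1 (adjusted p = 0.261).

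The gene that fell furthest was Hhex, a homeobox transcription factor needed for liver development. It read 5.77, 5.60 and 5.51 after PH, 7.16 and 6.73 after sham surgery, and 8.90, 8.92 and 8.18 at 0 h. Its fall against 0 h was -3.04 ± 0.31 (adjusted p = 2.1e-08), an 8.21-fold lower signal, and the sham livers lay between the 2 groups. It was 1.32 below sham (difference -1.32 ± 0.35, adjusted p = 0.0109), a call lost without sham replicate 1 (-1.11, adjusted p = 0.158). Erbb3, a receptor of the epidermal growth factor receptor family that pairs with its relatives, read 7.12, 7.25 and 6.54 after PH, 8.43 and 8.42 after sham surgery, and 9.19, 9.46 and 9.06 at 0 h. Erbb3 fell by 2.27 ± 0.31 against 0 h (adjusted p = 3.71e-06), with both probe sets called, and was lower than in sham livers by 1.46 (difference -1.46 ± 0.35, adjusted p = 0.00569), a call lost without sham replicate 2 (adjusted p = 0.0653). Its adaptor Grb7 fell by 1.27 ± 0.16 (adjusted p = 8.57e-07).

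Both claudins among the large changes, sealing proteins of tight junctions, fell against 0 h. Cldn1 read 4.35, 4.34 and 4.63 after PH, 4.26 and 4.27 after sham surgery, and 6.71, 7.08 and 6.37 at 0 h, a fall of -2.28 ± 0.36 (adjusted p = 3.55e-05) with a PH minus sham difference of 0.17 ± 0.41 (adjusted p = 0.822). Cldn3 read 6.13, 6.37 and 5.92 after PH, 6.92 and 6.91 after sham surgery, and 8.04, 8.20 and 7.97 at 0 h. Cldn3 fell by 1.93 ± 0.18 against 0 h (adjusted p = 2.51e-09) and lay 0.78 below sham (difference -0.78 ± 0.20, adjusted p = 0.00866), a call lost without sham replicate 1 (-0.77, adjusted p = 0.0826). Both claudins were called by both of their probe sets. Whether the PH minus sham difference of one claudin differs from that of the other was not tested.

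Among the other large falls, 2 genes handle retinoids. Cyp26a1, which breaks down retinoic acid, read 6.39, 6.96 and 6.68 after PH, 6.29 and 6.29 after sham surgery, and 8.80, 8.41 and 8.19 at 0 h, a fall of -1.79 ± 0.43 (adjusted p = 0.00387). Dhrs3, which reduces retinal to retinol, fell by 1.75 ± 0.23 (adjusted p = 1.83e-06). Of the steroid dehydrogenases, Hsd3b2 fell by 1.85 ± 0.40 (adjusted p = 0.0014). Hsd3b5, a male-biased liver form, read 7.92, 8.93 and 8.48 after PH, 9.48 and 8.79 after sham surgery, and 10.14, 10.96 and 10.57 at 0 h. Its groups did not overlap, but its call (-2.12 ± 0.73, adjusted p = 0.0455) did not survive leaving out any of the 6 arrays (adjusted p-values of 0.0537 to 0.159). Tsc22d1, a leucine zipper regulator, fell by 2.30 (adjusted p = 0.000196), Fbxo21, an F-box protein of ubiquitin ligases, by 2.18 (adjusted p = 3.32e-06), Cited2, a transcriptional coregulator, by 2.09 (adjusted p = 2.19e-05), and Prkd3, protein kinase D3, by 1.70 (adjusted p = 1.8e-07). Keg1 fell by 1.91 (adjusted p = 0.0104) and Phlda1 by 1.67 (adjusted p = 0.0207). The call of Keg1 was lost without 0 h replicate 2 (-1.62, adjusted p = 0.0787), and that of Phlda1 without 0 h replicate 2 (-1.54, adjusted p = 0.0868) or PH replicate 1 (-1.44, adjusted p = 0.0904). Where no sham values are given, the fall is against 0 h only. Of all 861 lower probe sets, 403 (46.8%) were also lower in sham livers than at 0 h and 2 were higher. Against sham, 96 of them (11.1%) were lower after PH and 7 were higher. Of the 989 higher probe sets, 221 (22.3%) were also higher in sham livers than at 0 h, and 366 (37%) exceeded sham. These comparisons share arrays, so the counts are not independent.

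The members of 44 gene lists were counted in the same fit, with 1 probe set for each gene. Over all 8251 genes measured so, 648 were higher (7.85%) and 670 lower (8.12%), with a median difference of 0.015, and the counts below are read against these shares. Lists overlap, and a gene can count in several.

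**Figure D3:**
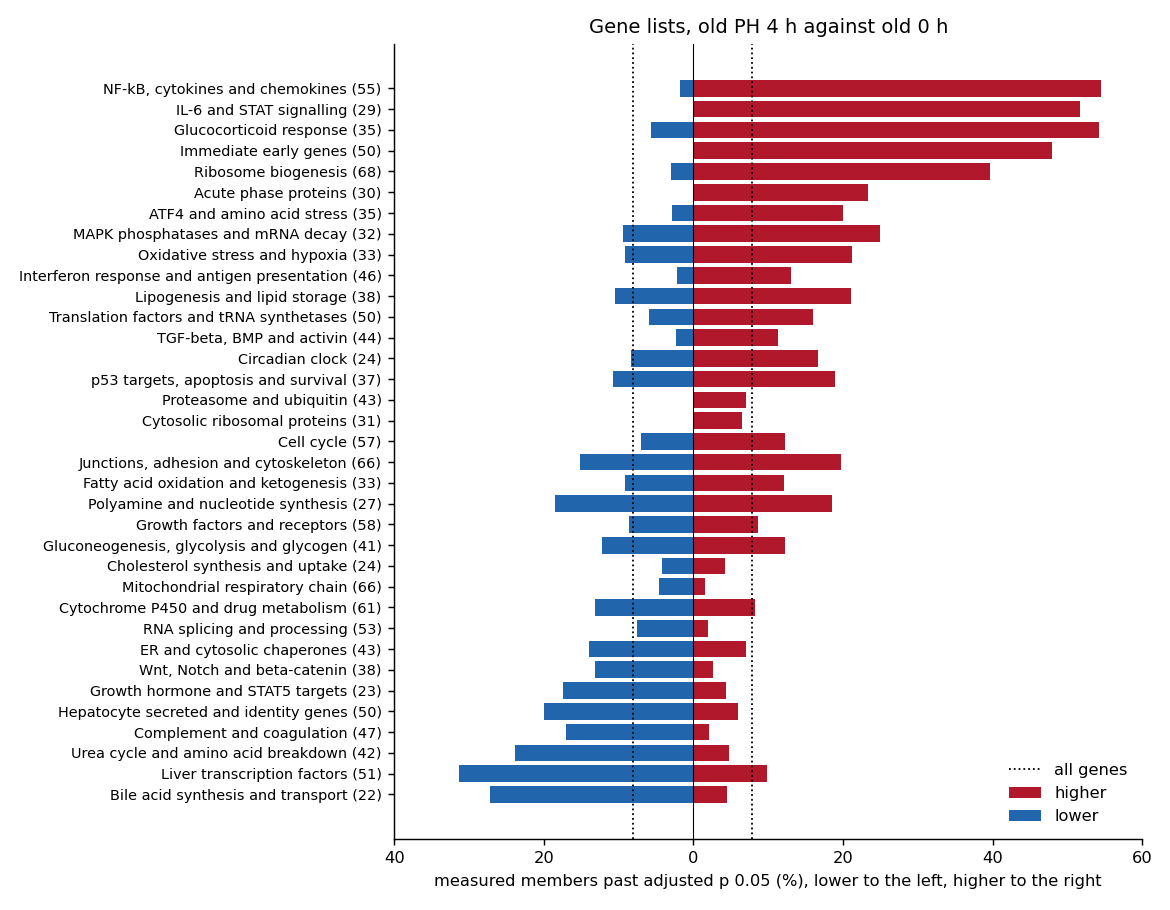
For each gene list (number of measured members in brackets), the bar to the right is the percentage of members higher and the bar to the left the percentage lower in old PH 4 h than in old 0 h livers at adjusted p under 0.05, with dotted lines at the shares of all 8251 genes (7.85% and 8.12%). The NF-kB, IL-6, glucocorticoid, immediate early and ribosome biogenesis lists reach furthest to the right, and the liver transcription factor and bile acid lists furthest to the left.

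Many genes of cytokine signalling rose. Of 29 measured members of IL-6 and STAT signalling, 15 were higher and none lower, with a median difference of 0.42. Against sham, where 6.11% of all genes were higher, 7 of the 29 were higher and none lower (none higher without sham replicate 1, 4 without sham replicate 2 and 4 to 8 without 1 PH array), and 6 were higher in sham livers than at 0 h. Socs3, the inhibitor that the IL-6 receptor pathway induces against itself, read 8.84, 9.18 and 9.24 after PH, 7.52 and 8.20 after sham surgery, and 7.15, 6.35 and 7.07 at 0 h. It rose by 2.23 ± 0.31 over 0 h (adjusted p = 3.78e-06, both probe sets) and by 1.23 over sham (adjusted p = 0.0159), and the call against sham was lost without sham replicate 1 (0.89, adjusted p = 0.257). Socs1, a related inhibitor, rose by 1.18 ± 0.17 (adjusted p = 6.14e-06), and Ptpn2, a phosphatase that acts on STAT proteins and their kinases, by 1.94 ± 0.23 (adjusted p = 4.53e-07). Stat3, the transcription factor of the pathway, read 9.77, 9.43 and 9.48 after PH, 9.15 and 9.28 after sham surgery, and 9.09, 8.65 and 8.49 at 0 h, a rise of 0.81 ± 0.16 (adjusted p = 0.000731). Osmr, the oncostatin M receptor subunit, rose by 1.64 (adjusted p = 0.0117), a call lost without 0 h replicate 3 (adjusted p = 0.0559) or PH replicate 3 (adjusted p = 0.0725).

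In the list of NF-kB, cytokines and chemokines, 30 of 55 members were higher and 1 was lower. Without 1 array 20 to 28 were higher, and with the 2 compared groups fitted alone 19. Against sham 9 were higher and 4 lower, where 6.63% of all genes were lower (5 higher without either sham array and 7 to 17 without 1 PH array, and 2 lower without sham replicate 1 and 1 without sham replicate 2). Of the 55, 9 were higher and 1 lower in sham livers than at 0 h. Il1rn, the antagonist of the interleukin-1 receptor, read 7.28, 9.15 and 7.99 after PH, 5.83 and 6.82 after sham surgery, and 5.30, 4.96 and 5.33 at 0 h, a rise of 2.94 ± 0.59 (adjusted p = 0.000716). Cd14, the coreceptor for bacterial lipopolysaccharide, rose by 2.16 ± 0.54 (adjusted p = 0.00525). Cxcl2, a neutrophil-attracting chemokine, read 4.67, 7.44 and 6.36 after PH against 4.37, 4.31 and 4.50 at 0 h. As with Ccl2 and Il1rn, PH replicate 2 was the highest array, and without it the rise of Cxcl2 was 1.13 (adjusted p = 0.108), against 1.77 with all arrays (adjusted p = 0.00807). Cxcl1, of the same family, rose by 2.10 (adjusted p = 0.00804), and by 1.43 without 0 h replicate 2 (adjusted p = 0.12).

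Of 30 acute phase genes, 7 were higher and none lower than at 0 h, and none of the 30 passed in either direction against sham. In the sham livers 8 were higher and 1 was lower than at 0 h (5 higher without sham replicate 1 and 3 without sham replicate 2), where 9.89% of all genes were higher and 8.67% lower. The median difference of the list was 0.38 for PH against 0 h and -0.19 for PH against sham. Serpina3n, a serine protease inhibitor of the acute phase, read 12.95, 12.76 and 12.97 after PH, 12.48 and 12.77 after sham surgery, and 10.96, 10.65 and 10.71 at 0 h, a rise of 2.12 ± 0.28 (adjusted p = 1.7e-06).

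Glucocorticoid-responsive genes had the largest median difference of the 44 lists, 0.94, with 19 of 35 higher and 2 lower than at 0 h. In sham livers 15 of the 35 were higher and 3 lower than at 0 h, and between PH and sham 5 were higher and 1 was lower. Without sham replicate 1 the sham minus 0 h count was 8 higher and the PH minus sham count 2 higher, and without sham replicate 2 they were 6 and 5. Fkbp5, a chaperone of the steroid receptor complex, read 9.48, 9.32 and 9.39 after PH, 9.81 and 9.76 after sham surgery, and 7.29, 6.76 and 7.38 at 0 h, a rise of 2.25 ± 0.41 (adjusted p = 0.000234). Tat, tyrosine aminotransferase, a classical glucocorticoid target of hepatocytes, rose by 0.83 ± 0.20 (adjusted p = 0.00357), and Cebpd, a C/EBP transcription factor of the acute phase, by 2.54 ± 0.40 (adjusted p = 3.22e-05). Igfbp1, the insulin-repressed binding protein of insulin-like growth factors, read 11.79, 11.87 and 11.69 after PH, 9.61 and 10.85 after sham surgery, and 8.39, 8.06 and 6.16 at 0 h. Its rise of 4.24 ± 0.57 (adjusted p = 3.01e-06) was seen in 1 of its 2 probe sets, and its difference from sham, 1.55 ± 0.64, did not pass (adjusted p = 0.105). Pck1, the gate enzyme of gluconeogenesis and a member of the same list, read 10.08, 10.19 and 9.32 after PH against 10.26, 9.50 and 10.04 at 0 h, with overlapping groups (-0.07 ± 0.20, adjusted p = 0.861).

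Immediate early genes were often higher than at 0 h and than in sham livers. Of 50 members, 24 were higher and none lower than at 0 h, with a median difference of 0.68, and 12 were higher and none lower than in sham livers (3 higher without sham replicate 1 and 5 without sham replicate 2). Of the 50, 7 were higher and 2 lower in sham livers than at 0 h. Atf3, a stress-induced transcription factor, read 8.62, 8.24 and 8.45 after PH, 6.48 and 7.36 after sham surgery, and 6.28, 6.13 and 6.08 at 0 h, a rise of 2.27 ± 0.55 (adjusted p = 0.00377) in 2 of its 3 probe sets. Jun, a partner in the AP-1 transcription factor, rose by 1.06 ± 0.22 (adjusted p = 0.0011). Fos, its usual partner, read 7.004, 5.79 and 5.97 after PH, 4.12 and 5.03 after sham surgery, and 6.69, 4.83 and 4.93 at 0 h, and did not pass (0.77 ± 0.92, adjusted p = 0.638). Myc, the growth-promoting transcription factor, read 5.23, 6.20 and 6.01 after PH, 3.80 and 4.20 after sham surgery, and 4.32, 3.79 and 4.58 at 0 h. All 3 PH arrays lay above all sham and 0 h arrays, and Myc rose by 1.58 ± 0.38 over 0 h (adjusted p = 0.00357) and by 1.81 ± 0.42 over sham (adjusted p = 0.00463), the difference from sham being lost without sham replicate 1 (1.61, adjusted p = 0.0884). Gadd45a, a growth arrest and DNA damage protein, rose by 2.16 ± 0.37 (adjusted p = 0.000102) and exceeded sham by 1.74 (adjusted p = 0.00576), which was 1.66 without sham replicate 1 (adjusted p = 0.0747). Crem, a cyclic AMP responsive regulator, rose by 1.67 ± 0.17 over 0 h (adjusted p = 1.88e-08) and exceeded sham by 1.34 ± 0.19 (adjusted p = 2.07e-05). Btg2, an antiproliferative gene, rose by 1.69 ± 0.34 (adjusted p = 0.000676), and Pim3, a survival kinase, by 2.02 ± 0.24 (adjusted p = 3.05e-07).

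Many genes that build ribosomes rose. The list of 68 ribosome biogenesis genes held 27 that were higher and 2 that were lower than at 0 h, with a median difference of 0.21, and 14 were higher and none lower than in sham livers (4 higher without sham replicate 1 and 1 without sham replicate 2). Of the 68, 11 were higher and 4 lower in sham livers than at 0 h. Nop58, a core protein of the particles that methylate ribosomal RNA, read 6.25, 6.45 and 6.43 after PH, 5.47 and 5.61 after sham surgery, and 4.65, 4.42 and 4.28 at 0 h, a rise of 1.93 ± 0.27 (adjusted p = 3.91e-06). Rrs1, a ribosome assembly factor, read 7.89, 7.96 and 7.84 after PH, 7.08 and 7.20 after sham surgery, and 6.69, 6.44 and 6.42 at 0 h. In both genes the groups were ordered PH, sham, 0 h from high to low without overlap, and Rrs1 rose by 1.38 ± 0.19 (adjusted p = 3.91e-06). Tsr1 rose by 1.46 ± 0.23 (adjusted p = 3.61e-05), and Gnl3, nucleostemin of the nucleolus, by 1.17 ± 0.25 (adjusted p = 0.00128). The ribosomal proteins themselves gave 2 of 31 higher and none lower, a share below that of all genes, and translation factors with tRNA synthetases 8 of 50 higher and 3 lower. Without 0 h replicate 2 these counts were 5 and 0, and none was lower without 0 h replicate 1 or PH replicate 3 and 1 without PH replicate 2. Eif4e, the cap-binding factor, read 5.30, 5.20 and 5.67 after PH, 4.27 and 4.70 after sham surgery, and 4.61, 4.66 and 4.61 at 0 h, a rise of 0.77 ± 0.18 (adjusted p = 0.00299) in 1 of 2 probe sets.

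The cell cycle list did not stand far from all genes, with 7 of 57 higher and 4 lower, with 3 higher without 0 h replicate 2, 4 without 0 h replicate 3, PH replicate 1 or PH replicate 3, and 2 lower without 0 h replicate 2, PH replicate 2 or PH replicate 3. Cdkn1a, the cyclin-dependent kinase inhibitor p21, read 9.33, 9.31 and 9.22 after PH, 8.34 and 8.55 after sham surgery, and 8.20, 8.17 and 8.22 at 0 h. The PH arrays lay about 1 log2 unit above both other groups, and p21 rose by 1.09 ± 0.11 over 0 h (adjusted p = 2.1e-08, both probe sets) and by 0.84 ± 0.12 over sham (adjusted p = 3.59e-05). Ccnd1, cyclin D1, which drives entry into the cycle, read 7.21, 6.83 and 7.07 after PH, 6.98 and 6.97 after sham surgery, and 7.05, 6.92 and 6.70 at 0 h, and did not pass (0.14 ± 0.18, adjusted p = 0.658). Ccng1, cyclin G1, fell by 0.75 (difference -0.75 ± 0.15, adjusted p = 0.000598). Odc1, ornithine decarboxylase of polyamine synthesis, rose by 0.58 (adjusted p = 0.011), a call lost without 0 h replicate 1 (adjusted p = 0.0841) or PH replicate 2 (adjusted p = 0.117). Among survival genes, Bcl2l1, which encodes the antiapoptotic protein Bcl-xL, read 9.20, 9.52 and 9.30 after PH, 8.29 and 8.79 after sham surgery, and 7.78, 8.07 and 7.96 at 0 h, a rise of 1.40 ± 0.14 (adjusted p = 2.1e-08) in 1 of 2 probe sets. Pdcd4, an inhibitor of translation, fell by 1.36 ± 0.20 (adjusted p = 1.33e-05).

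Growth factors and their receptors had 5 of 58 members higher and 5 lower, close to the shares of all genes (3 lower without 0 h replicate 1, 0 h replicate 2 or PH replicate 3). Hgf, the hepatocyte growth factor, was near the floor of the array at 3.38, 3.09 and 2.91 after PH against 3.26, 3.11 and 2.94 at 0 h (0.02 ± 0.10, adjusted p = 0.919). Its receptor Met read 6.24, 6.10 and 6.20 after PH against 6.59, 6.53 and 6.32 at 0 h (-0.30 ± 0.12, adjusted p = 0.0776), and Egfr, the epidermal growth factor receptor, gave 0.41 ± 0.24 (adjusted p = 0.285). Btc, betacellulin, a ligand of that receptor, rose by 0.64 ± 0.16 from a low level (adjusted p = 0.00474). In the list of TGF-beta, BMP and activin, 5 of 44 were higher and 1 lower (3 higher without 0 h replicate 3 or PH replicate 1). Inhbb, the beta-B subunit of activins and inhibins, read 6.27, 5.92 and 6.11 after PH, 4.45 and 4.61 after sham surgery, and 4.28, 4.03 and 4.34 at 0 h, and was raised by 1.88 ± 0.17 over 0 h (adjusted p = 1.53e-09) and 1.57 ± 0.19 over sham (adjusted p = 2.92e-06). Fst, follistatin, which binds and blocks activins, read 6.64, 6.83 and 7.86 after PH, 6.01 and 5.89 after sham surgery, and 6.04, 5.67 and 5.79 at 0 h, a rise of 1.28 ± 0.22 (adjusted p = 8.65e-05). A ligand subunit and its antagonist were thus both higher on every PH array than on any sham or 0 h array. Wnt and Notch genes gave 1 of 38 higher and 5 lower, among them Hes6 (-1.38 ± 0.22, adjusted p = 4.03e-05) and Numb, an inhibitor of Notch (-0.76 ± 0.14, adjusted p = 0.000166, 1 of 2 probe sets).

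Stress responses were mixed. Of 33 genes of oxidative stress and hypoxia, 7 were higher and 3 lower (1 lower without 0 h replicate 1). Hmox1, haem oxygenase, read 10.87, 10.79 and 10.57 after PH, 9.27 and 9.67 after sham surgery, and 8.98, 8.94 and 8.78 at 0 h, a rise of 1.84 ± 0.29 (adjusted p = 3.3e-05). Hif1a, the oxygen-regulated transcription factor subunit, read 9.94, 10.09 and 10.11 after PH, 8.53 and 8.89 after sham surgery, and 8.93, 8.73 and 8.67 at 0 h, and was raised by 1.27 ± 0.18 over 0 h (adjusted p = 8.58e-06) and 1.33 ± 0.21 over sham (adjusted p = 6.21e-05). Txnrd1, thioredoxin reductase, rose by 1.31 ± 0.18 (adjusted p = 3.32e-06), while Cat, catalase, fell by 0.97 ± 0.15 in 1 of 2 probe sets (adjusted p = 3.33e-05). In the ATF4 and amino acid stress list 7 of 35 were higher and 1 lower (4 higher without 0 h replicate 2, 0 h replicate 3 or PH replicate 2), with Slc38a2, an amino acid transporter, up by 1.61 ± 0.29 (adjusted p = 0.000152). Chaperones gave 3 of 43 higher and 6 lower (1 higher without PH replicate 3, and 3 lower without 0 h replicate 3, PH replicate 1 or PH replicate 3). Hspa1a, the inducible heat shock protein, read 6.32, 6.42 and 6.23 after PH against 7.86, 6.39 and 7.63 at 0 h, with 0 h replicate 2 among the PH values. Its difference of -0.97 (adjusted p = 0.0258) was lost without any 1 of 0 h replicates 1 and 3 and PH replicates 1 and 3 (adjusted p = 0.0599 to 0.175).

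More transcription factors of the liver fell than rose. Of 51 measured, 16 were lower and 5 higher (3 higher without 0 h replicate 1), and against sham 7 were lower and 3 higher (3 lower without either sham array and 4 to 7 without 1 PH array). In sham livers 10 were lower and 5 higher than at 0 h. Foxa1, a pioneer factor of the liver, read 5.21, 5.19 and 5.26 after PH, 5.67 and 5.20 after sham surgery, and 6.61, 7.16 and 6.92 at 0 h, a fall of -1.68 ± 0.36 (adjusted p = 0.00141) with a PH minus sham difference of -0.22 ± 0.41 (adjusted p = 0.771). The C/EBP factors moved apart. Cebpb, the family member of growth and the acute phase, read 11.50, 11.37 and 11.30 after PH, 9.90 and 10.30 after sham surgery, and 9.94, 9.02 and 9.20 at 0 h, a rise of 2.00 ± 0.26 (adjusted p = 1.7e-06). Cebpb exceeded sham by 1.29 ± 0.29 (adjusted p = 0.00378), and by 1.09 without sham replicate 1 (adjusted p = 0.0947). Cebpa, the family member of the resting hepatocyte, read 10.38, 10.61 and 10.44 after PH, 10.86 and 10.65 after sham surgery, and 11.28, 11.06 and 10.94 at 0 h. Its fall of -0.62 ± 0.20 (adjusted p = 0.0323) was lost without 0 h replicate 1 or 2 or PH replicate 1 or 3 (adjusted p = 0.0769 to 0.13). Nr0b2, the small heterodimer partner that represses bile acid synthesis, fell by 1.18 ± 0.25 (adjusted p = 0.00135), and Srebf1, the regulator of fatty acid synthesis, by 1.13 ± 0.18 (adjusted p = 3.23e-05).

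Hepatocyte functions fell more often than they rose against 0 h, by amounts mostly under 1 log2 unit. Several of the counts rested on single arrays. Of 50 secreted and identity genes, 10 were lower and 3 higher (3 lower without 0 h replicate 2, 4 without PH replicate 3, 5 without PH replicate 1, 6 without 0 h replicate 1). Adh1, alcohol dehydrogenase, fell by 0.64 ± 0.10 (adjusted p = 2.07e-05), while the apolipoproteins Apoa4 and Apob rose by 1.81 ± 0.28 (adjusted p = 2.48e-05) and 0.83 ± 0.20 (adjusted p = 0.004). Of 42 genes of the urea cycle and amino acid breakdown, 10 were lower and 2 higher (6 lower without PH replicate 3). Hal, histidase, read 8.70, 8.82 and 8.001 after PH, 8.99 and 8.81 after sham surgery, and 10.13, 10.12 and 9.74 at 0 h, a fall of -1.49 ± 0.22 (adjusted p = 1.33e-05), and Gldc of glycine cleavage fell by 1.11 ± 0.20 (adjusted p = 0.000216). Complement and coagulation genes gave 8 of 47 lower and 1 higher (2 lower without PH replicate 3, 3 without 0 h replicate 2, 4 without 0 h replicate 1, 5 without PH replicate 1). Klkb1, plasma prekallikrein, fell by 0.96 ± 0.14 (adjusted p = 1.48e-05), and Thbd, thrombomodulin, an anticoagulant receptor of endothelium, was the 1 that rose, by 1.43 ± 0.17 (adjusted p = 4.53e-07, both probe sets). Of 22 bile acid genes, 6 were lower and 1 higher (2 lower without PH replicate 3, 3 without 0 h replicate 2). Hsd3b7, which modifies the sterol ring on the way to bile acids, fell by 0.88 ± 0.16 (adjusted p = 0.000222), and Abcc2, the canalicular export pump, rose by 0.59 ± 0.14 (adjusted p = 0.00314). Cyp7a1, the rate-limiting enzyme, read 5.35, 5.54 and 5.69 after PH, 6.86 and 5.77 after sham surgery, and 7.40, 6.19 and 5.86 at 0 h. All 3 PH arrays were below the 0 h arrays, but the difference of -0.96 ± 0.44 did not pass (adjusted p = 0.155). In sham livers 5 secreted and identity genes were lower and 3 higher than at 0 h, and 1 was lower and 2 higher after PH than after sham surgery. For the urea cycle list the sham minus 0 h counts were 7 lower and 2 higher, and the PH minus sham counts 1 and 0. Complement and coagulation gave 3 lower and 2 higher, then 5 and 3, and bile acid genes 2 and 1 in both comparisons.

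Drug metabolism gave 8 of 61 genes lower and 5 higher (3 higher without 0 h replicate 3), with Cyp2b10, an inducible cytochrome P450, up by 1.69 ± 0.29 (adjusted p = 9.45e-05) and Cyp3a25 down by 0.79 (difference -0.79 ± 0.18, adjusted p = 0.00251). Against sham 1 of the 61 was lower and none higher, and in sham livers 9 were lower and 4 higher than at 0 h. Growth hormone and STAT5 targets gave 4 of 23 lower and 1 higher (2 lower without 0 h replicate 2). The 1 that rose, Socs2, an inhibitor of growth hormone signalling, read 7.89, 9.02 and 9.50 after PH, 7.67 and 7.01 after sham surgery, and 5.94, 6.51 and 6.59 at 0 h, a rise of 2.46 ± 0.48 (adjusted p = 0.000472).

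Lipid and glucose genes moved both ways. In lipogenesis and lipid storage 8 of 38 members were higher and 4 lower (1 lower without PH replicate 3, 2 without 0 h replicate 2). Plin2, the coat protein of lipid droplets, read 13.04, 12.36 and 12.19 after PH, 11.35 and 11.995 after sham surgery, and 10.58, 11.40 and 11.23 at 0 h, a rise of 1.46 ± 0.23 (adjusted p = 2.43e-05), and its relative Plin4 rose by 1.35 ± 0.15 (adjusted p = 1.8e-07). With Cidec, 3 droplet proteins were therefore above 0 h on every PH array. Thrsp, a promoter of fatty acid synthesis, rose by 2.08 ± 0.39 (adjusted p = 0.000298), and Lpin1, a phosphatidate phosphatase, by 2.09 ± 0.49 (adjusted p = 0.00317). Of 24 cholesterol genes 1 was higher and 1 lower than at 0 h, and 4 were higher and none lower than in sham livers (2 higher without sham replicate 1, none without sham replicate 2 and 1 to 2 without 1 PH array). In sham livers 6 of the 24 were lower than at 0 h and none higher (3 lower without sham replicate 1 and 2 without sham replicate 2). Of the 4 genes above sham, Npc1, a cholesterol carrier of lysosomes, was lower in sham livers than at 0 h (sham minus 0 h -0.89, adjusted p = 0.000272), and Dhcr7, the last enzyme of cholesterol synthesis, was also lower there (sham minus 0 h -1.51, adjusted p = 0.0116), while neither passed between PH and 0 h (adjusted p = 0.292 and 0.687). Fatty acid oxidation gave 4 of 33 higher and 3 lower (1 lower without 0 h replicate 2 or PH replicate 3, and 1 higher without PH replicate 1, 2 without PH replicate 2, 0 h replicate 1 or 0 h replicate 3). Of 41 genes of glucose and glycogen metabolism 5 were higher and 5 lower (2 lower without 0 h replicate 1, and 3 without 0 h replicate 2, PH replicate 1 or PH replicate 3). G6pc, the last enzyme of glucose output, read 9.90, 10.40 and 10.12 after PH, 9.82 and 9.41 after sham surgery, and 11.59, 10.96 and 10.67 at 0 h. Its fall of -0.94 ± 0.30 (adjusted p = 0.0313) was lost without 0 h replicate 1 (-0.68, adjusted p = 0.186), 0 h replicate 2, PH replicate 1 or PH replicate 3 (adjusted p = 0.0639 to 0.116).

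Of 24 circadian clock genes 4 were higher and 2 lower (2 higher without PH replicate 1). Alas1, the first enzyme of haem synthesis and a clock-controlled gene, read 12.06, 11.74 and 11.83 after PH, 11.97 and 11.42 after sham surgery, and 10.27, 8.89 and 9.37 at 0 h, a rise of 2.36 ± 0.45 (adjusted p = 0.000417). Cry1, a repressor of the clock, fell by 1.03 ± 0.20 in 1 of 3 probe sets (adjusted p = 0.000472). Arntl was the other that fell (-1.05, adjusted p = 0.0284). Per1 (0.31, adjusted p = 0.19) and Dbp (-0.17, adjusted p = 0.856) did not pass. In sham livers 5 of the 24 were higher and 5 lower than at 0 h, among them Cry1 (-0.72, adjusted p = 0.0232) and Arntl (-1.33, adjusted p = 0.0119). Neither Cry1 nor Arntl passed between PH and sham (adjusted p = 0.376 and 0.667), where 3 of the 24 were higher and 1 lower. The labels give no clock time, so the hour of day of the groups is not known here. Among 66 genes of junctions, adhesion and the cytoskeleton 13 were higher and 10 lower (8 higher without 0 h replicate 3, PH replicate 2 or PH replicate 3). Tubb6, a beta-tubulin, rose by 1.81 ± 0.23 (adjusted p = 9.12e-07), and Krt8, a keratin of hepatocytes, by 1.51 ± 0.31 (adjusted p = 0.000904).

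The remaining lists had the following counts. Of 32 MAPK phosphatases and mRNA decay factors, 8 were higher and 3 lower than at 0 h (5 higher without 0 h replicate 2, and 1 lower without 0 h replicate 2 or PH replicate 3), and 8 were higher and 1 lower than in sham livers (3 higher without either sham array). In sham livers 1 was higher and 6 were lower than at 0 h. Tob1, an antiproliferative partner of the mRNA deadenylation machinery, fell by 1.39 ± 0.28 (adjusted p = 0.000724, 1 of 2 probe sets), while Mapkapk2, a kinase downstream of p38, rose by 0.85 ± 0.14 (adjusted p = 6.26e-05). The p53 and apoptosis list gave 7 of 37 higher and 4 lower, and polyamine and nucleotide synthesis 5 of 27 each way (3 higher without PH replicate 2, and 2 lower without 0 h replicate 1, 0 h replicate 2, PH replicate 2 or PH replicate 3). Sat1, which acetylates polyamines for breakdown, rose by 1.10 ± 0.23 (adjusted p = 0.000974). Interferon and antigen presentation gave 6 of 46 higher and 1 lower (2 higher without 0 h replicate 3 or PH replicate 3). RNA splicing gave 1 of 53 higher and 4 lower than at 0 h (2 lower without 0 h replicate 2, PH replicate 2 or PH replicate 3), and 7 higher and none lower than in sham livers, where in sham against 0 h 1 was higher and 8 lower. Without either sham array 2 splicing genes were higher after PH than after sham, and 4 and 2 were lower in sham than at 0 h without sham replicate 1 and 2. Proteasome genes gave 3 of 43 higher and none lower (none higher without PH replicate 2 and 1 without PH replicate 3), and the respiratory chain 1 of 66 higher and 3 lower (1 lower without 0 h replicate 2 or PH replicate 3).

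Markers of other cell types were counted in the same fit. Of 16 neutrophil markers 3 were higher and none lower than at 0 h, and none differed from sham. S100a9, a calcium-binding protein of neutrophils, read 6.45, 7.65 and 7.51 after PH, 6.65 and 7.57 after sham surgery, and 5.53, 4.97 and 5.40 at 0 h, a rise of 1.91 ± 0.50 (adjusted p = 0.00815). Its partner S100a8 rose by 2.12 (adjusted p = 0.0201), a call lost without 0 h replicate 2 or 3 or PH replicate 2 or 3 (adjusted p = 0.055 to 0.0914). The summed level of the neutrophil list was 10.42 to 10.62 after PH, 10.53 to 10.77 after sham surgery, and 10.18 to 10.36 at 0 h, on a log2 scale of the summed signals. Mmp8, a neutrophil collagenase, was the third that rose, by 0.55 (adjusted p = 0.00938), a call lost without PH replicate 1 (adjusted p = 0.0541). The granule genes Elane (0.14), Mpo (-0.06) and Ltf (-0.09) did not pass against 0 h (adjusted p = 0.782 to 0.949). The median difference of the 16 markers was 0.16, and the part of neutrophils in the other changes was not tested. None of 24 Kupffer cell and macrophage markers (summed level 11.72 to 12.10 after PH, 11.54 to 11.66 after sham surgery, and 11.32 to 11.90 at 0 h) and none of 20 stellate cell and fibroblast markers (12.09 to 12.34 after PH, 11.90 to 12.10 after sham surgery, and 11.91 to 12.30 at 0 h) passed against 0 h. Of the 24 macrophage markers 22 had a positive difference from 0 h, with a median of 0.27. For the 20 stellate and fibroblast markers these were 16 and 0.06, and for all 8251 genes 4388 and 0.015. Whether either list shifted as a whole was not tested. Of 20 endothelial markers 4 were higher and 1 lower, with Nos3, endothelial nitric oxide synthase, up by 0.72 ± 0.11 (adjusted p = 3.4e-05) and a summed level of 11.11 to 11.24 after PH, 10.87 to 11.01 after sham surgery, and 11.07 to 11.21 at 0 h. Kdr was the 1 that fell (difference -0.31 ± 0.09, adjusted p = 0.0122). In sham livers Nos3 was also higher (0.52, adjusted p = 0.00541) and Kdr also lower (-0.30, adjusted p = 0.0247) than at 0 h. Neither passed in PH minus sham (0.20, adjusted p = 0.311, and -0.003, adjusted p = 0.987). Cdh5, the cadherin of endothelium, read 6.94, 6.95 and 7.10 after PH, 5.86 and 5.84 after sham surgery, and 6.43, 6.60 and 6.10 at 0 h. It was 1.15 ± 0.17 above sham (adjusted p = 3.44e-05). Cdh5 was also lower in sham livers than at 0 h (sham minus 0 h -0.52, adjusted p = 0.0278). There 6 of the 20 markers were lower and 2 higher. None of 11 cholangiocyte markers passed (9.59 to 9.88 after PH, 9.55 to 9.59 after sham surgery, and 9.52 to 9.62 at 0 h), and 2 of 28 markers of T, B and NK cells did, both higher (10.92 to 11.05 after PH, 11.02 to 11.05 after sham surgery, and 10.81 to 10.88 at 0 h). Of 8 plasma cell markers 1 was higher, and their summed level was 9.93 to 13.14 after PH, 9.64 to 9.97 after sham surgery, and 9.79 to 10.99 at 0 h, with PH replicate 3 the highest. Of 13 erythroid and platelet markers 1 was lower (12.90 to 13.20 after PH, 13.02 to 13.12 after sham surgery, and 12.83 to 13.63 at 0 h).

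The 4 h level was placed in the time course of the old livers by a comparison with 2 h after PH. At 4 h, 89 probe sets (0.716%) were higher than at 2 h and 139 (1.12%) were lower, 1.84% of those tested. The spike-in controls of the 2 h arrays averaged 7.977, 8.523 and 7.938, below those of the 4 h arrays. A fit that held the spike-in signal as a covariate called 32 probe sets. With the 2 groups fitted alone 35 passed. Leaving out 1 array gave 354 without replicate 1, 59 without replicate 2 and 101 without replicate 3 of the 2 h group, and 133 without replicate 1 and 71 without replicate 3 of the 4 h group. Cdkn1a stayed called in every alternative, with 9.33, 9.31 and 9.22 at 4 h against 8.59, 8.56 and 8.38 at 2 h (0.78, adjusted p = 0.000117). Rrs1 was 1.15 higher at 4 h than at 2 h (adjusted p = 0.000889) and G6pc was lower, at 9.90, 10.40 and 10.12 against 11.94, 12.37 and 11.89 at 2 h (-1.93, adjusted p = 0.000399), both with an adjusted p of 0.0497 under the spike-in covariate. Cidec was 1.67 and Mrap 1.23 higher, and Cldn3 lower (-1.24), all with the call lost when the 2 groups were fitted alone (adjusted p = 0.0668, 0.103 and 0.0825).

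Over the 5 times the genes followed different courses. Mt2 averaged 7.93 ± 0.71 at 0 h, 9.91 ± 2.89 at 0.5 h, 12.58 ± 0.81 at 1 h, 13.03 ± 0.32 at 2 h and 13.41 ± 0.01 at 4 h after PH (SD, n = 3 each). The wide spread at 0.5 h came from PH replicate 1 of that time, which read 13.25, against 8.26 and 8.23 in the other arrays. Myc averaged 4.23 ± 0.40 at 0 h, 4.12 ± 0.24 at 0.5 h, 5.85 ± 0.26 at 1 h, 6.05 ± 0.25 at 2 h and 5.81 ± 0.51 at 4 h, a plateau after 1 h. Atf3 averaged 6.16 ± 0.10 at 0 h, 7.59 ± 1.90 at 0.5 h, 9.75 ± 0.57 at 1 h, 9.28 ± 0.64 at 2 h and 8.44 ± 0.19 at 4 h, so its highest mean came before 4 h, although the step between 2 h and 4 h did not pass (-0.85, adjusted p = 0.466). Cdkn1a averaged 8.20 ± 0.03 at 0 h, 8.18 ± 0.24 at 0.5 h, 8.40 ± 0.17 at 1 h, 8.51 ± 0.12 at 2 h and 9.29 ± 0.06 at 4 h, with its main step after 2 h. Hhex averaged 8.67 ± 0.42 at 0 h, 7.65 ± 0.56 at 0.5 h, 7.64 ± 0.33 at 1 h, 6.05 ± 0.28 at 2 h and 5.63 ± 0.13 at 4 h. In sham livers Hhex averaged 7.58 ± 0.04, 6.80 ± 0.02, 6.20 ± 0.26 and 6.95 ± 0.30 at the same 4 times after surgery (SD, n = 2 each), with the lowest mean at 2 h.

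**Figure D4:**
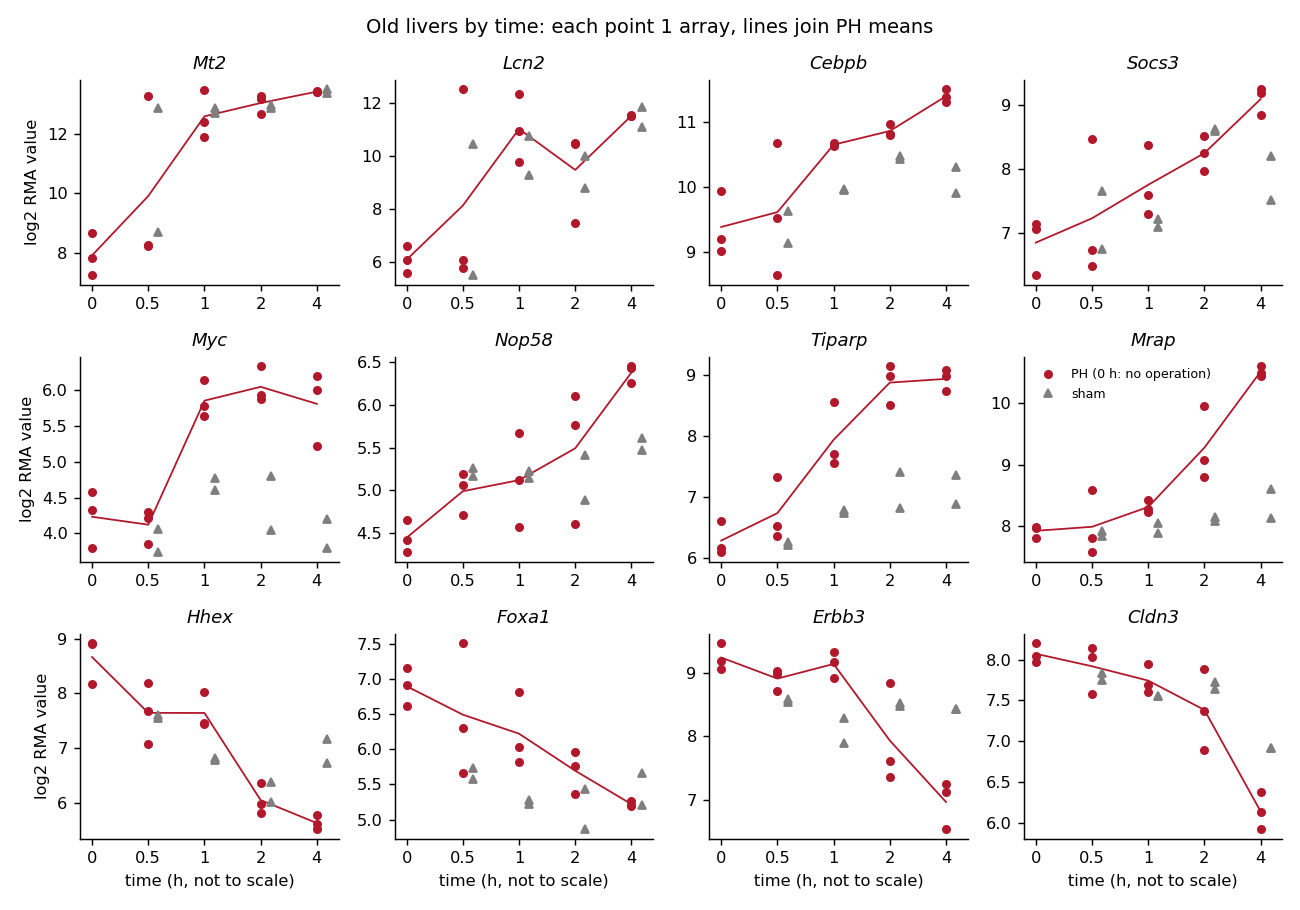
The log2 RMA value of each array of old livers for 12 genes over the 5 times of collection (evenly spaced, not to scale), with PH arrays as red circles, sham arrays as grey triangles and a line through the PH means. Mt2 and Lcn2 reach overlapping levels after both operations at 4 h, Myc, Tiparp and Mrap are higher after PH than after sham surgery at 4 h, and Hhex, Erbb3 and Cldn3 are lowest in the 4 h PH arrays.

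The change at 4 h was also set against that of young livers, the question of age that the series was designed for. In young livers 407 probe sets (3.28%) were higher at 4 h after PH than at 0 h and 545 (4.39%) were lower, 7.66% together. For the difference between the 2 changes 0 probe sets passed (0%) by limma, and 563 had an unadjusted p under 0.05. Leaving out single arrays gave 0 to 2 calls: 2 without young PH replicate 1, and 1 each without old PH replicate 1, old 0 h replicate 1 or young 0 h replicate 3. A larger count of called probe sets in old livers is not a test of a difference between the ages. Young 0 h replicate 3 read 10.76 in the beta-actin 3′ control, below the other 0 h arrays.

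Leading changes of the old liver are set here beside those of the young. Mt2 read 13.35, 13.41 and 13.44 after PH in young livers, against 7.79, 7.70 and 8.35 at young 0 h, and the old minus young difference of its change was 0.03 ± 1.11 (adjusted p = 1). For Cdkn1a that difference was 0.03 ± 0.16, for Igfbp1 -0.17 ± 0.81, for Cebpb 0.28 ± 0.37, for Socs3 0.46 ± 0.43, for Foxa1 0.59 ± 0.51 and for Hhex -0.91 ± 0.44, each with an adjusted p of 1. The standard error was small for Cdkn1a and large for Mt2, whose pooled spread includes that of the 0.5 h arrays. In this fit a difference of 1 log2 unit would not have passed for Mt2.

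The smallest p-values of the age difference belonged to genes that rose in old livers and changed less in young ones, none past the threshold. Zfp36l2, a protein that destabilises messenger RNA, read 10.19, 9.91 and 10.11 after PH in old livers against 8.49, 8.49 and 8.51 at old 0 h, and 8.50, 8.79 and 8.91 after PH in young livers against 9.69, 9.25 and 8.26 at young 0 h. Its changes of 1.58 in old and -0.33 in young livers differed by 1.91 ± 0.38 (unadjusted p = 1.65e-05, adjusted p = 0.205). Socs2 read 6.79, 8.35 and 8.46 after PH in young livers against 8.55, 8.98 and 7.30 at young 0 h, so that its young 0 h level was already near the level of old livers after PH. Its changes differed by 2.87 ± 0.67 (adjusted p = 0.4). Zbtb16, a zinc finger repressor, read 8.25, 8.41 and 8.08 after PH in old livers against 5.57, 6.57 and 7.10 at old 0 h, and 7.46, 7.92 and 8.29 after PH in young livers against 8.83, 8.67 and 8.53 at young 0 h (difference of changes 2.62 ± 0.67, adjusted p = 0.509). In all 3 genes the 0 h level was higher in most young arrays than in old ones. Cytip (1.06 ± 0.25), Socs1 (0.95 ± 0.24), Ccl5, a chemokine for T cells (0.82 ± 0.21), Mmp3 (0.60 ± 0.15), Nhp2 (0.59 ± 0.14), Ywhaz (0.53 ± 0.14) and Cidec (1.33 ± 0.35) completed the 10, with adjusted p-values of 0.4 to 0.509.

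**Figure D5:**
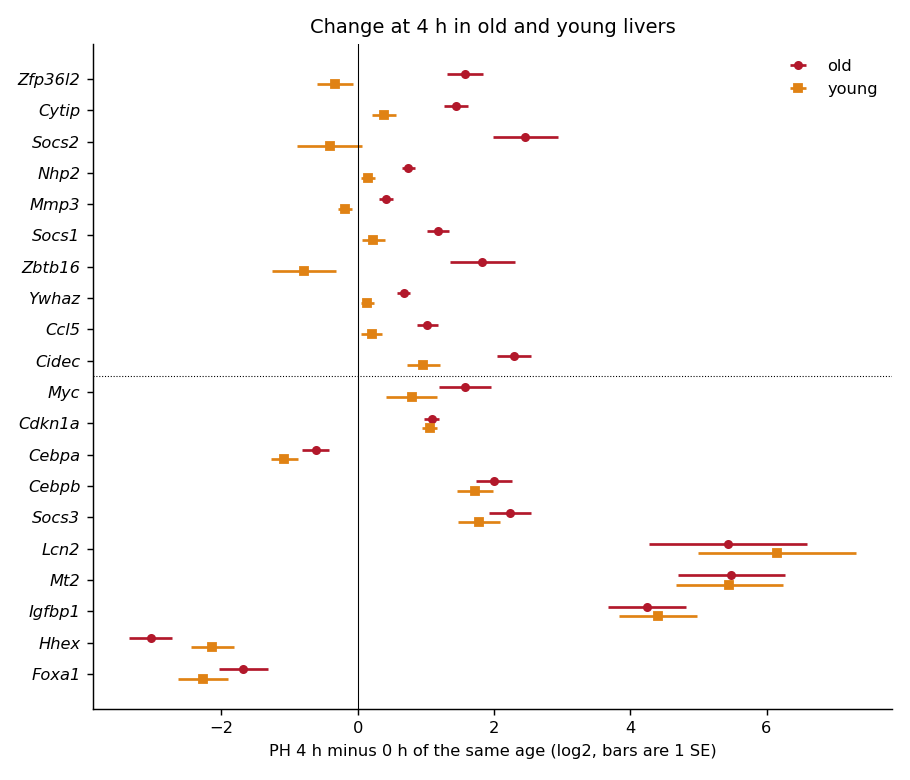
The difference PH 4 h minus 0 h (log2, bars 1 SE) in old livers (red circles) and in young livers (orange squares) for the 10 genes with the smallest p for the age difference (above the dotted line) and 10 further named genes (below it). The upper genes lie further right in old livers, none past an adjusted p of 0.05 for the difference, and the lower genes lie on the same side of 0 in both ages.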

How the data were processed

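Total RNA of whole liver was hybridised to Affymetrix Murine Genome U74 v2 arrays. The authors deposited RMA values on the log2 scale, 1 column per array, RMA being named in the submitters' processing notes without a version. Of 12488 probe sets, 66 controls were left out and 12422 were tested, 10833 of them with 1 gene symbol in the platform annotation, 396 with several and 1193 unnamed here. Groups were taken from the sample titles. All 46 arrays were fitted with 1 mean per group (lmFit and eBayes of limma 3.58.1, R 4.3.3, with 28 residual and 5.09 prior degrees of freedom), each contrast was adjusted over all probe sets by the Benjamini-Hochberg method, and calls used an adjusted p under 0.05. The fit was tested on simulated data. Where a gene has several probe sets, the values are those of the brightest on average over all arrays.

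Genes named were up to 15 with the largest called difference each way against 0 h, up to 6 called members of each list by size (up to 2 where none passed), up to 8 each way against sham, the 10 with the smallest p for the age difference, and a fixed set of regulators and liver genes. The comparisons, gene lists and named genes were chosen with earlier results of these data known, so counts over the lists are descriptions. Same-numbered PH and 0 h arrays did not deviate together (correlations of deviations -0.149, 0.173 and -0.0509), so the numbers were not used as pairs. The alternatives were median centring, leaving out the dimmest 25% of probe sets, trend and robust eBayes, the compared groups alone, 1 probe set per gene, cross-hybridising probe sets left out, a replicate block, array weights, the spike-in signal as a covariate, and leaving out each array. The number of arrays limits the precision.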

Additional observations from a re-analysis of the deposited data

How the results depend on the processing

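The PH minus 0 h count of 1850 stayed within 1.5 times under every alternative other than leaving out arrays, with 2773 as the highest (array weights) and 1362 as the lowest (1 probe set per gene), and was 1073 to 1585 without 1 array. Median centring gave 844 higher and 990 lower. With array weights, PH minus sham gave 3516 calls, sham minus 0 h 5062, the age difference 1 and 4 h minus 2 h 699. PH minus sham gave 1042 with 1 probe set per gene. The 4 h minus 2 h count was 35 with the compared groups alone and 32 with the spike-in covariate. Without 1 array, PH minus sham gave 390 to 1414, sham minus 0 h 582 to 2024, the age difference 0 to 2 and 4 h minus 2 h 59 to 354; the cause was not tested. With the replicate number as a block the counts were 1832, 1450, 2180, 0 and 215 in the order PH minus 0 h, PH minus sham, sham minus 0 h, age difference and 4 h minus 2 h. Of 227 named genes 205 passed against 0 h, 135 of them in every alternative, 42 lost the call only without 1 array, and 0 changed direction. Most named genes were chosen because they passed in this comparison, many by size, so these numbers do not describe all called probe sets. Of 33 list counts of 5 or more, 10 stayed within 1.5 times under every alternative.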
